A study of Drosophila melanogaster with 35 samples.

Results

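Germline and piRNA genes were followed in the fat body of female Drosophila melanogaster. The set held the 10 genes nos, osk, vas, bcd, grk, exu, piwi, aub, AGO3 and orb, chosen by name, and each gene had 1 row among the 14649 rows of the fat body count table. Poly(A) RNA had been sequenced from dissected fat body of flies aged 30 days. S106 is a GeneSwitch driver active in adult fat body and gut, which turns on a UAS transgene when the fly eats the steroid RU486. The 17 libraries fell into 4 groups, in which every fly carried the S106 driver. S106 flies, titled WT, gave 5 control and 4 switch libraries, and S106>UASfoxo flies gave 4 of each. The S106>UASfoxo genotype adds a transgene for dFOXO, a forkhead factor held in check by insulin signalling, and the S106 flies lack it. In both genotypes the switch flies were fed RU486 at 200 µM over 21 days and returned to control food for the last 7 days, and the induction label gives no RU486 for either control group. The number of flies behind a library and its origin from a separate culture are not stated, so a p-value covers the spread between libraries, which may be technical.

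Library totals ran from 6708078 to 27527703 counts, and values below are CPM, counts scaled to a common library total, with TMM factors. Yolk protein and fat storage genes of the fat body were abundant in every library, as the 15 fat body markers summed to between 29077 and 160434 CPM. Among these markers the yolk protein genes Yp1, Yp2 and Yp3 had means of 48784, 14402 and 11935 CPM. The apolipoprotein gene apolpp ranged from 3196 to 17225 CPM and the fatty acid synthase gene FASN1 from 867.9 to 9084 CPM. Fbp1 and Fbp2, named for the larval fat body, reached 0.940 and 0.587 CPM at most. Also low were Lsp2, with 4.92 CPM at most, and the gene to, with 11.4 CPM at most. The 6 oenocyte markers summed to between 17460 and 77275 CPM. The foxo transcript differed by 0.63 ± 0.35 (SE) on the log2 scale between S106>UASfoxo switch and control libraries, and its adjusted p in edgeR's test was 0.457. Germline RNA varied widely within each group. S106 control replicate 2, S106 switch replicate 3 and S106>UASfoxo control replicate 2 held under 10 counts of vas, and the spreads and correlations below are also given without these 3 libraries.

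In the fly ovary, nurse cells load the growing oocyte with messenger RNAs that later set the axes of the embryo and found its germ line. PIWI proteins bound to small piRNAs guard the same cells against transposons, with Piwi acting in the nucleus and Aub and AGO3 amplifying piRNAs in the cytoplasm. The ovary lies against the abdominal fat body of the female. A working piRNA pathway has also been described in the adult fat body itself.

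The genes lie on 4 chromosome arms, and positions are given on BDGP6 as annotated by Ensembl, which need not be the build the authors used. On arm 3R were nos (FBgn0002962, listed as nanos, 19157238 to 19160202), osk (FBgn0003015, 8935126 to 8938395), bcd (FBgn0000166, 6755842 to 6759466) and orb (FBgn0004882, 23260610 to 23280856). On arm 2L were vas (FBgn0283442, 15061656 to 15074311), grk (FBgn0001137, 8431086 to 8433598), piwi (FBgn0004872, 10982205 to 10987420) and aub (FBgn0000146, 10997819 to 11001476). The exu gene (FBgn0000615) spans 20667427 to 20671083 on 2R, and AGO3 (FBgn0250816) spans 23554593 to 23689640 on 3L. No member had counts identical to those of another row. Exons overlap a gene on the opposite strand by 212 bases at grk (Akap200), 397 bases at exu (galla-1), 191 bases at piwi (SCAR) and 79 bases at aub (TTLL4A). At nos they overlap CG11779 by 269 and Nsun5 by 104 bases, and at osk asRNA:CR44020 by 162 bases, also on the opposite strand. On the same strand, vas shares 563 bases with solo and osk shares 2251 of its 2869 exon bases with lncRNA:osk. The kit was directional, but the strand setting of the counting is not given, so reads in these stretches could not be assigned to 1 gene with certainty.

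The posterior determinants varied more between libraries of 1 group than between groups. The vas gene, whose DEAD-box RNA helicase is the usual marker of germ cells, stood at 97.1, 0.611, 5.41, 7.80 and 108.7 CPM in S106 control replicates 1 to 5. In the 4 S106 switch replicates vas stood at 100.2, 18.6, 0.362 and 132.8 CPM. Each of these groups thus held libraries that were rich in vas and a library nearly without it. In S106>UASfoxo control replicates vas stood at 69.6, 0.192, 23.0 and 111.1 CPM, and in S106>UASfoxo switch replicates at 39.5, 4.76, 33.0 and 33.5 CPM. The S106>UASfoxo switch group had the narrowest range of the 4, and all 4 ranges overlapped. The 3 lowest values rest on 9, 3 and 2 counts.

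Oskar, made from osk, builds the germ plasm at the posterior pole of the egg, and osk was the most abundant member in most libraries. S106 control libraries held 568.3, 1.22, 11.3, 97.8 and 591.9 CPM of osk, and S106 switch libraries held 497.3, 104.8, 0.483 and 699.96 CPM. S106>UASfoxo control libraries held 486.3, 0.192, 93.1 and 690.2 CPM, and S106>UASfoxo switch libraries held 261.4, 55.9, 152.2 and 356.4 CPM. The libraries that were high or low in vas were also high or low in osk. The translational repressor gene nos, a posterior determinant, had 84.2, 0.815, 5.53, 3.15 and 119.3 CPM in S106 control libraries and 107.4, 28.6, 0.603 and 146.0 CPM in S106 switch libraries. In the S106>UASfoxo groups nos had 63.6, 0.192, 26.7 and 53.4 CPM in control libraries and 52.7, 7.46, 47.1 and 38.2 CPM in switch libraries. The 4 groups overlapped for both genes. An RNA-binding protein that activates translation of localized oocyte messages comes from orb. Levels of orb ranged from 0.192 CPM in S106>UASfoxo control replicate 2 to 234.3 CPM in S106 switch replicate 4.

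The bcd and exu genes act at the anterior pole and went together, with a rho of 0.965 between them. Bicoid is the anterior morphogen, and bcd ran from 0 counts in S106 switch replicate 3 and S106>UASfoxo control replicate 2 to 52.1 CPM in S106 switch replicate 4. A count of 0 allows up to 3 counts, which is 0.362 CPM in the first of these libraries and 0.287 CPM in the second. This limit covers counting error only, as the use of the kit's molecular barcodes is not given. Exuperantia localizes bcd RNA, and exu ranged from 5.31 to 196.9 CPM. Its lowest libraries still held 44 to 98 reads of exu, where the overlapping galla-1 stood at 24.1 to 50.2 CPM over all libraries.

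The grk gene did not follow the other 9. Gurken is the TGF-alpha-like ligand with which the oocyte signals to follicle cells through the EGF receptor. S106 control libraries held 25.1, 20.2, 31.5, 28.1 and 15.1 CPM of grk, and S106 switch libraries held 17.5, 18.2, 22.0 and 17.4 CPM. S106>UASfoxo control libraries held 31.0, 18.4, 24.7 and 28.1 CPM, and S106>UASfoxo switch libraries held 14.2, 28.9, 28.3 and 24.8 CPM. The 3 libraries nearly without vas were thus within the range of the others for grk, with 182 to 297 reads each. Akap200, which shares exon sequence with grk on the opposite strand, stood at 364.9 to 1032 CPM, and its part in the grk counts was not tested.

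**Figure D1:**
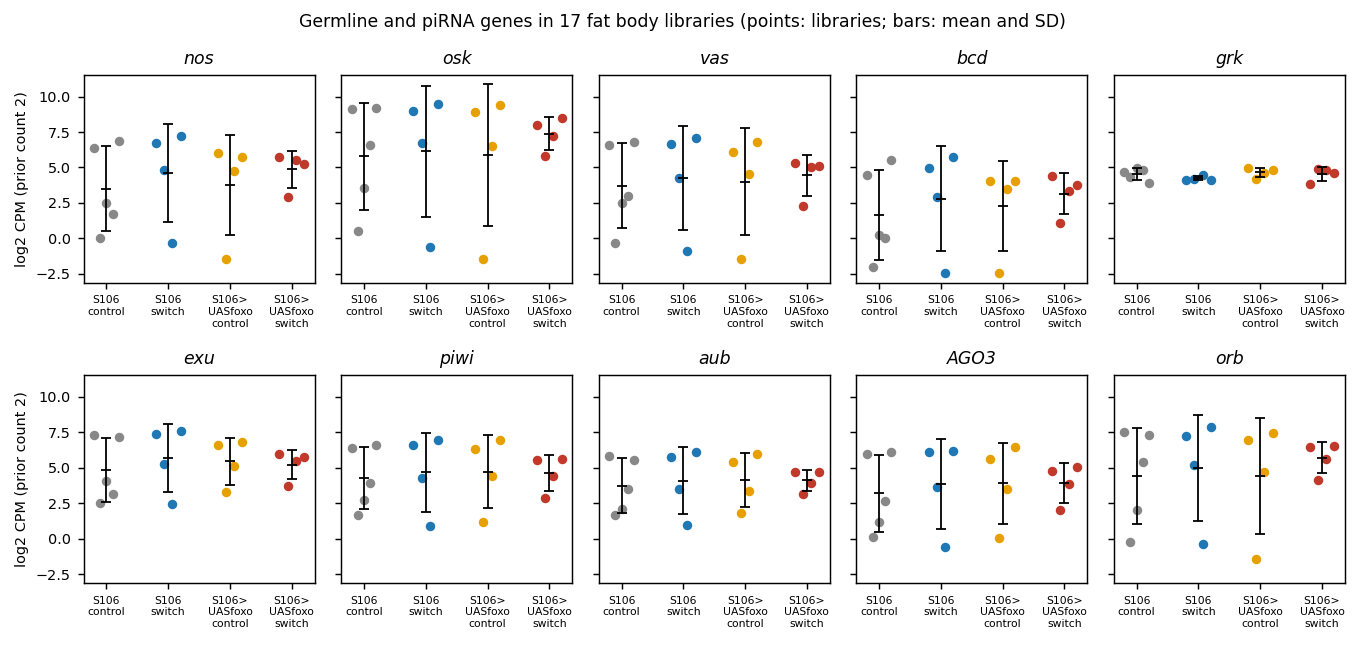
Level of each gene as log2 CPM (prior count of 2) in the 17 libraries by group, with points for libraries and bars for the mean and SD. In 9 panels the points of a group spread widely and the groups overlap, whereas grk stays between 14.2 and 31.5 CPM on the linear scale.

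All 3 PIWI genes moved in the manner of vas. The piwi gene stood at 83.7, 3.06, 6.52, 15.4 and 99.7 CPM in S106 control libraries and at 95.8, 19.0, 1.69 and 124.0 CPM in S106 switch libraries. In S106>UASfoxo control libraries piwi stood at 79.0, 2.11, 21.1 and 121.9 CPM, and in S106>UASfoxo switch libraries at 47.6, 7.14, 21.6 and 49.3 CPM. Over all libraries aub ranged from 1.81 to 70.7 CPM and AGO3 from 0.483 to 89.8 CPM. The libraries with the least vas kept 14 to 45 reads of piwi and 15 to 45 reads of aub, against 4 to 13 reads of AGO3. The groups overlapped for each of the 3 genes.

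Per kilobase of exon, osk had the highest mean level over the 17 libraries, 95.7 CPM per kb. Then came exu at 20.9, vas at 20.2, nos at 19.7, piwi at 15.3, grk at 13.5, AGO3 at 9.64, aub at 8.84, orb at 8.53 and bcd at 5.81 CPM per kb. The SD between libraries was 91.1 CPM per kb for osk, 19.3 for nos and 3.30 for grk. The 9 genes other than grk rose and fell together, so this SD does not measure how certain their order is within a library. The order of neighbours was not tested. Within single libraries osk ranked first in 13, and grk ranked first in the other 4, which were S106 control replicates 2 and 3, S106 switch replicate 3 and S106>UASfoxo control replicate 2. In those 4 libraries the 9 genes other than grk summed to 15.9, 56.8, 11.3 and 16.4 CPM. The highest sum was 1728 CPM, in S106 switch replicate 4.

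The spread within groups was wide for the members other than grk, though not for them alone. The span between the lowest and highest library had a median of 7.63 on the log2 CPM scale over the 10 members, against 1.98 over the 9819 genes tested. It reached 10.88 for osk and was 1.14 for grk. In other lists the median span was 9.23 for eggshell, 8.36 for spermatheca and 7.35 for cell cycle genes. The remaining lists had lower medians. Without the 3 libraries nearly without vas the median span was 5.03 over the members and 1.88 over all tested genes, and that of osk was 5.93. The within-group SD of log2 CPM had a median of 2.80 over the members and 0.55 over all tested genes, and 21 tested genes exceeded osk while 7295 exceeded grk. Without those 3 libraries the medians were 1.72 and 0.54. The 4 groups accounted for between 0.798 percent (piwi) and 18.3 percent (grk) of the variance of a member, against a median of 15.9 percent over all tested genes.

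Library numbers in the labels were divided into 5 inferred rounds, each holding up to 1 fat body library of a group. A round was started at each gut library of S106>UASfoxo control, and the labels themselves name no rounds. Germline RNA was high in all libraries of some rounds and varied widely in others. Rounds accounted for a median of 58.0 percent of the variance of the members, against 46.6 percent over all tested genes. In round 1 the 3 libraries held 1315, 1268 and 1030 CPM of the 9 genes other than grk, in the order S106 control, S106 switch and S106>UASfoxo control. In round 3 the S106 control, S106 switch and S106>UASfoxo switch libraries held 56.8, 11.3 and 120.6 CPM. Round 5 was high again, with 1386 CPM in S106 control, 1432 CPM in S106>UASfoxo control and 698.6 CPM in S106>UASfoxo switch. Rounds 2 and 4 were mixed, from 15.9 to 625.3 CPM and from 193.8 to 1728 CPM. The labels do not say what a library number marks.

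The other genes followed vas from library to library. Over the 17 libraries Pearson's r of log2 CPM with vas was 0.982 for nos, 0.976 for osk, 0.978 for bcd, 0.944 for exu, 0.974 for orb, 0.980 for piwi, 0.951 for aub and 0.979 for AGO3. Spearman's rho for these 8 genes lay between 0.949 and 0.993. Each had a two-sided permutation p of 1e-05, the smallest that 100000 permutations can give, and an adjusted p of 1.33e-05 over the family of 12 relations. The permutations shuffled all 17 libraries freely and took no account of library rounds. Members and lists were chosen with earlier results of these data known, which the permutation p-values here and below do not allow for. For grk, r of −0.06 and rho of −0.23 had permutation p-values of 0.82 and 0.378, which the adjustment left as they were. Of all 36 pairs among the 9 genes other than grk, rho ran from 0.922 to 0.995, and the 9 pairs with grk ran from −0.35 to −0.16. Without the 3 libraries nearly without vas these ranges were 0.868 to 0.991 and −0.64 to −0.41.

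The 3 libraries nearly without vas lay apart at the low end of these plots. Without them, r over the other 14 libraries was 0.944 for nos, 0.925 for osk, 0.938 for bcd, 0.970 for exu, 0.908 for orb, 0.975 for piwi, 0.944 for aub and 0.978 for AGO3. For grk it was −0.46, with a permutation p of 0.101. Leaving out the 2 libraries farthest from the median of vas gave values between 0.946 and 0.979 for the 8 genes and −0.26 for grk. Centred within library rounds, the 8 genes had r between 0.8996 (aub) and 0.977 (AGO3), and grk had −0.29.

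**Figure D2:**
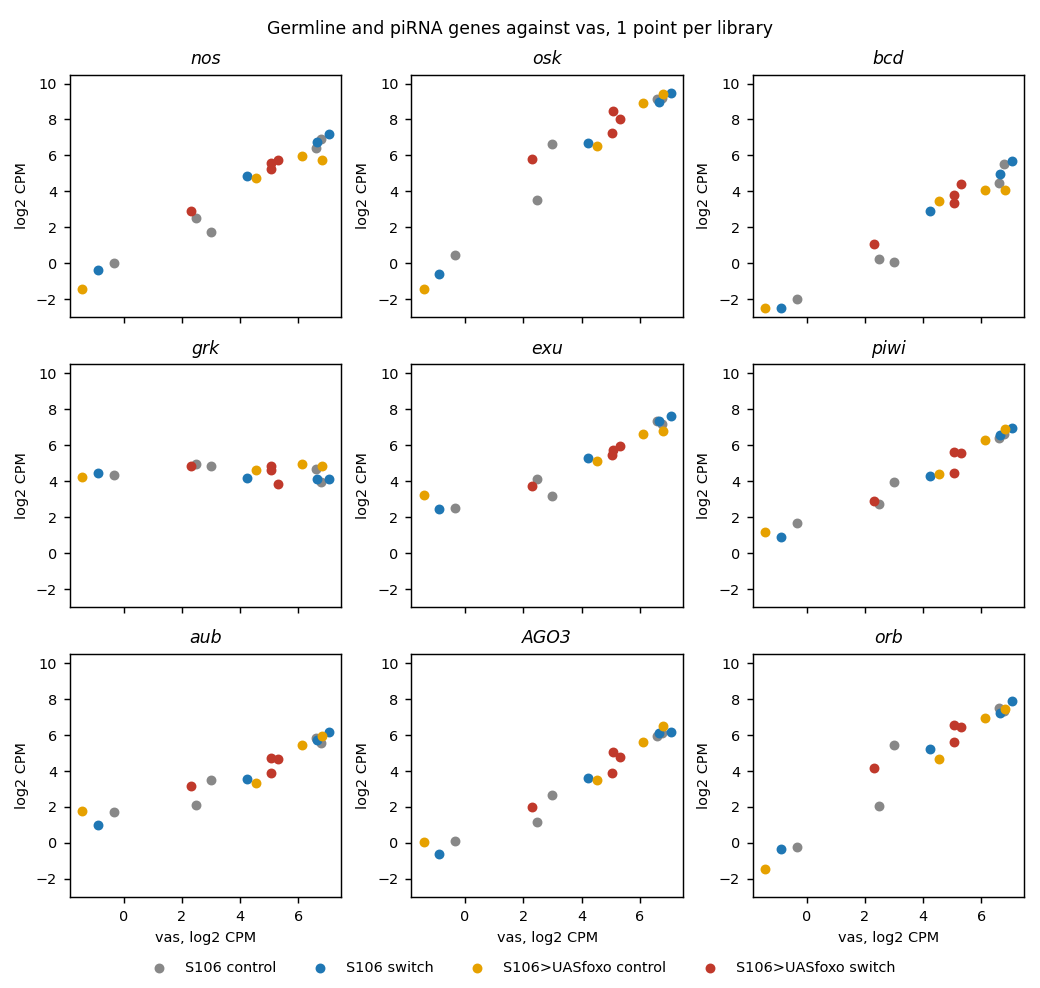
Log2 CPM of 9 genes (vertical axes) against log2 CPM of vas (horizontal axis), with 1 point per library in the colour of its group. Points lie along a rising line in 8 panels with the groups mixed along it, and lie flat for grk, whose r with vas is −0.06.

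Markers of the follicle cells that wrap the germ line had lower correlations with vas. Follicle cell and eggshell genes, all 19 of them detected in at least 1 library, summed to between 11.0 CPM in S106>UASfoxo control replicate 2 and 4448 CPM in S106 switch replicate 4. Their sum ranged from 32.6 to 3161 CPM in the S106 control group and from 16.5 to 4448 CPM in the S106 switch group. With the transgene it ranged from 11.0 to 1243 CPM without RU486 and from 30.9 to 2493 CPM after it. Their mean log2 CPM had r = 0.668 and rho = 0.797 with vas (adjusted permutation p of 0.00439 and 0.000262), and r was 0.657 without the 3 libraries nearly without vas. In 4 libraries germline RNA stood well above zero while the follicle cell and eggshell sum was low. These were S106 control replicate 4, S106 switch replicate 2, S106>UASfoxo control replicate 3 and S106>UASfoxo switch replicate 3. In this order they held 193.8, 277.1, 256.2 and 386.5 CPM of the 9 germline genes. Their follicle cell and eggshell sums, which include the gene tj, were 32.6, 16.5, 13.5 and 30.9 CPM. The values of 32.6, 16.5 and 30.9 CPM were the lowest of their groups. S106 control replicate 2 and S106 switch replicate 3, nearly without vas, thus had higher sums. The chorion genes Cp36 and Cp38 and the vitelline membrane genes Vm26Aa and Vm34Ca, which encode coats of the egg, each had a library with no count. The follicle cell transcription factor gene tj was present throughout, at 7.76 to 72.7 CPM, and its rho with the mean of the 10 germline and piRNA genes was 0.083.

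Genes of dividing and endocycling cells had the highest r of the 3 lists compared with vas. The 21 cell cycle genes summed to between 38.9 CPM in S106>UASfoxo control replicate 2 and 3857 CPM in S106 switch replicate 4, and their mean had r = 0.985 with vas (adjusted permutation p of 1.33e-05). Fat body markers ran the other way, with r = −0.67 and rho = −0.81 (adjusted permutation p of 0.00439 and 0.00018). Without the 3 libraries nearly without vas, r was 0.976 for cell cycle genes and −0.81 for fat body markers. Centred within rounds, r was 0.975 for cell cycle genes, 0.517 for eggshell genes and −0.45 for fat body markers. CPM values of a library share 1 total. The members' sum ranged from 0.00259 percent of counts in S106 switch replicate 3 to 0.245 percent in S106 switch replicate 4. Fat body markers summed to between 29076.5 CPM in S106>UASfoxo control replicate 4 and 160434 CPM in S106 switch replicate 3. The part of the shared total in the negative r of fat body markers was not tested. In RNA from whole tissue, a larger number of germ cells and more germline RNA per cell cannot be told apart. The part of ovarian cells in these values was not tested.

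**Figure D3:**
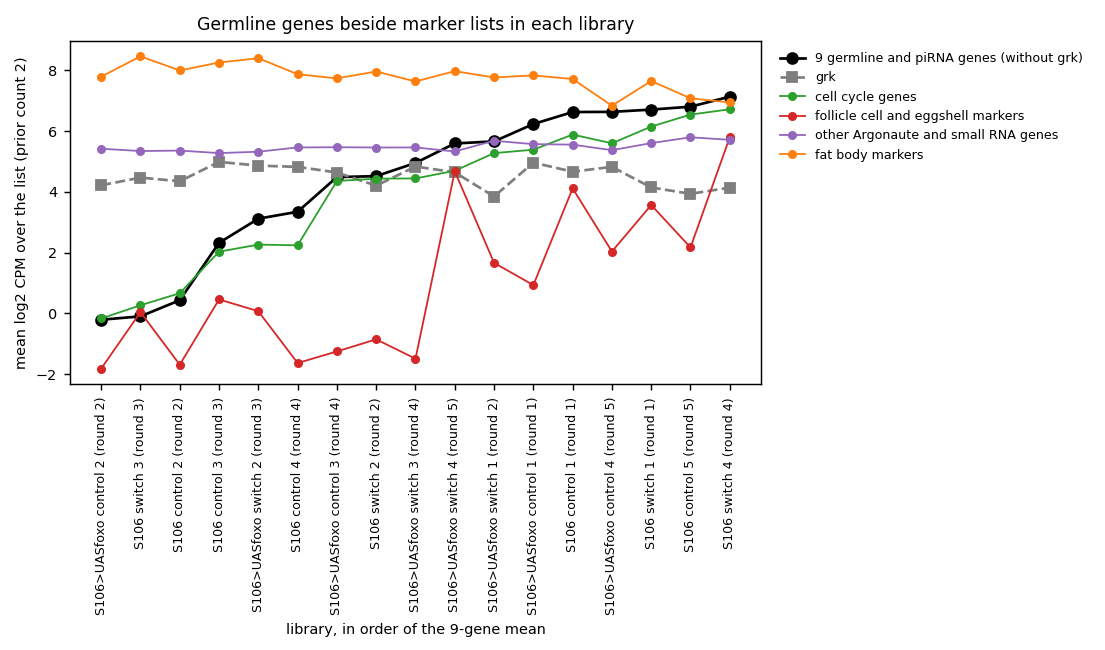
Mean log2 CPM (vertical axis) of the 9 germline and piRNA genes other than grk, of grk and of 4 gene lists in each library, with libraries ordered along the horizontal axis by the 9-gene mean and lines that only join points. The 9-gene mean spans −0.21 to 7.13 and the cell cycle line runs beside it, whereas eggshell genes drop in libraries of middle rank. The line of the other Argonaute and small RNA genes, a mean over 8 genes, spans 0.52 between its lowest and highest library.

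Many other piRNA genes also followed the members. Of 12 nuclear piRNA factors, 7 had rho of at least 0.9 with the mean of the 10 members over the 17 libraries. The count was 8 of 12 over the 14 libraries that leave out those nearly without vas. The heterochromatin protein gene rhi, which marks piRNA source loci, ranged from 0 to 18.0 CPM, its partner del from 1.57 to 119.3 CPM and the nuage protein gene mael from 0.204 to 47.3 CPM. Of 21 tested genes of piRNA biogenesis and ping-pong, 12 reached that rho, and 14 over the 14 libraries. The Tudor protein gene krimp ranged from 0.121 to 76.2 CPM, the helicase gene spn-E from 0.121 to 75.1 CPM and the helicase gene armi from 2.99 to 81.0 CPM. Some followers were detected throughout, such as Panx, which acts with Piwi in nuclear silencing, at 3.38 to 22.7 CPM with a rho of 0.941, and Gasz, a mitochondrial piRNA factor, at 7.72 to 46.3 CPM with 0.904. In contrast, tud stood at 158.7 to 300.8 CPM with a rho of −0.83, mino at 188.5 to 838.3 CPM with −0.73, and papi at 32.8 to 41.7 CPM with 0.16. The follicle cell factor gene fs(1)Yb was not tested, as it did not exceed 1.13 CPM. These correlations describe 17 shared libraries and carry no test, and 8.75 percent of tested non-member genes reached the same rho, or 10.46 percent over the 14 libraries.

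Of 27 tested oocyte patterning and germ plasm genes outside the set, 16 had rho of at least 0.9, and 14 over the 14 libraries. The ovarian tumour gene otu ranged from 0.0958 to 288.2 CPM, the Polo inhibitor gene mtrm from 0 to 170.8 CPM and the embryonic cycle gene gnu from 0.192 to 166.0 CPM. The RNA helicase gene me31B, part of the complex that represses maternal messages, ranged from 76.0 to 1538 CPM. Among those detected throughout, the dynein adaptor gene BicD ranged from 45.7 to 112.9 CPM with a rho of 0.990 and stau, whose protein carries osk and bcd RNA, from 27.9 to 125.4 CPM with 0.975. BicD's partner egl had a rho of −0.02 and the actin nucleator gene capu −0.49. The 8 genes of the microRNA and siRNA pathways had a median span of 1.34 on the log2 scale. AGO1 stood at 109.5 to 174.8 CPM with a rho of 0.650, AGO2 at 215.4 to 423.5 CPM with −0.85 and Dcr-2 at 83.7 to 137.5 CPM with −0.67. Dcr-1 ranged from 11.7 to 33.5 CPM with a rho of 0.507, and pasha, of the microRNA processing complex, from 6.11 to 26.7 CPM with 0.936. Of the 8 testis and male germline genes that had a row, 7 stayed at or under 0.658 CPM. The exception was twe, a Cdc25 phosphatase gene of meiosis, at 1.57 to 73.6 CPM with a rho of 0.978.

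The 5 spermatheca markers, from the sperm-storing organ of the female, had a median rho of 0.047 with the 10-gene mean. Their sum ranged from 0 to 489.1 CPM and reached 220.6 CPM or more in each group. No listed gene with a row in the count table was at 0 in all libraries. The listed genes FASN3, comr, Mst84Da, Mst84Db and Orc1 had no row. Median rho was −0.52 for gut enterocyte, −0.59 for hemocyte, −0.69 for muscle, −0.38 for neuron and −0.82 for oenocyte markers.

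Among all other tested genes, the 10 with the highest rho to the mean of the set were CycA, Delta and jumu (0.995 each), CG6927 (0.994), and heph, sced, msps, Cyp6a19, CG18586 and tef (0.993 each). Levels of CycA, the cyclin of S phase and mitosis, ran from 0.192 to 614.5 CPM, and those of Delta, a Notch ligand with which germ cells signal to follicle cells, from 1.53 to 49.5 CPM. The lowest rho belonged to Gel (−0.98), which encodes the actin-severing protein gelsolin and stood at 368.9 to 1529 CPM, followed by FBgn0037744 and eIF3g1 (−0.97 each). In all, 858 tested genes outside the set had rho of at least 0.9, and 183, or 1.87 percent, had −0.9 or lower.

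The make-up of germline RNA was compared between libraries by ratios of CPM, which are not corrected for length and were taken where the second gene had more than 3 counts. The ratio of osk to orb had a median of 3.10 over 16 libraries and lay between 1.80 and 3.93 in all but S106 switch replicate 3, where 4 osk reads stood against 5 orb reads. The ratio of nos to bcd lay between 2.44 and 5.63 in 14 libraries. The ratio of osk to nos varied more, with a median of 4.87. It was highest in S106 control replicate 4, at 31.0, where 2296 osk reads stood against 74 nos reads. The same library had the highest ratio of osk to bcd, 114.8 against a median of 15.5, with 20 bcd reads. Its ratio of orb to nos was also the highest, 13.6 against a median of 1.51. The next highest osk to nos ratios were 12.9 in S106>UASfoxo control replicate 4 and 9.33 in S106>UASfoxo switch replicate 4. The ratio of AGO3 to piwi ran from 0.286 to 0.736 over 17 libraries, and its 5 lowest values were 0.286 in S106 switch replicate 3, 0.289, 0.321 and 0.393 in S106 control replicates 2, 3 and 4, and 0.409 in S106>UASfoxo control replicate 2. In S106 control replicate 2 piwi stood at 5.00 times and exu at 9.00 times the level of vas, against medians of 1.10 and 1.59, with 9 vas reads behind both values.

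**Figure D4:**
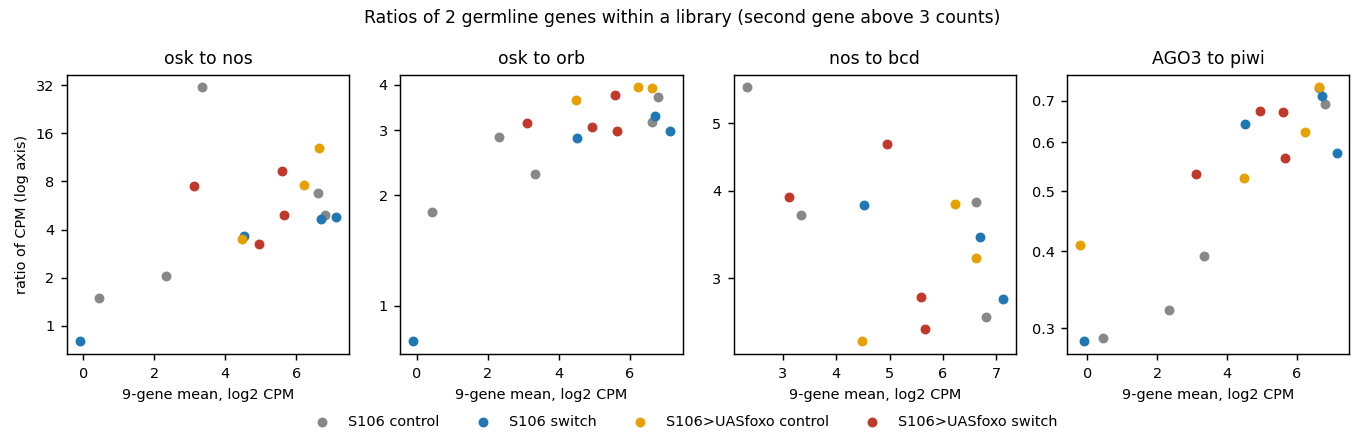
Ratio of CPM of 2 genes (vertical log axes, with a scale of their own in each panel) against the mean log2 CPM of the 9 genes other than grk (horizontal axes), with 1 point per library in the colour of its group. The osk to nos ratio of S106 control replicate 4 stands alone at 31.0, and AGO3 to piwi is between 0.286 and 0.736.

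In flies with the transgene, switch libraries were set against control libraries to ask what a past period of dFOXO expression left behind. None of the 10 germline and piRNA genes passed edgeR's test at an adjusted p of 0.05, where 0 percent of the 9819 genes tested passed. DESeq2 called 0 members against 61 genes, or 0.772 percent of those to which it gave an adjusted p, and limma-voom called 0 members and 0 percent of genes. At an unadjusted p of 0.05 edgeR called 0 members against 12.9 percent of all genes, and the groups did not overlap for 0 members against 4.16 percent of all genes. Log2 fold changes ran from −0.94 ± 1.40 (SE) for AGO3 to 0.07 ± 1.56 for bcd, with adjusted p-values from 0.830 to 0.997 and n = 4 libraries in each group. They were −0.88 ± 1.49 for vas, −0.62 ± 1.69 for osk, 0.02 ± 1.45 for nos and −0.09 ± 0.26 for grk. The median over the members was −0.59, against −0.02 over all genes, and each SE except that of grk was above 1. By limma-voom the median over the members was positive, at 0.49. Gut enterocyte markers had a median of 2.69 in this comparison, with sums of 19.1 to 593.7 CPM in the switch and 11.3 to 57.0 CPM in the control group. Hemocyte markers had a median of 0.70, with sums of 298.4 to 1074 CPM and 157.6 to 413.4 CPM. S106 control libraries held 18.6 to 817.0 CPM of enterocyte and 226.2 to 1095 CPM of hemocyte markers. S106 switch libraries held 35.9 to 108.6 CPM and 307.8 to 1144 CPM. For S106>UASfoxo control minus S106 control the medians were −2.05 and −0.47. All 12 enterocyte and all 8 hemocyte markers were detected in at least 1 library, and their part in the members' values was not tested.

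Within library rounds the direction changed. In round 2 the S106>UASfoxo switch library exceeded its control in 9 of 10 members, with a median difference of 5.72 on the log2 CPM scale. That control, S106>UASfoxo control replicate 2, held 2 counts each of nos, osk, vas and orb and 0 of bcd. The size of the round 2 difference thus rests on a library near the floor and on the prior count. In round 4 the switch library exceeded its control in 9 members, with a median of 0.45. In round 5 it was lower in all 10, with a median of −1.01. With the round as a block in the fit, the median over the members was 1.62, and that fit includes S106>UASfoxo control replicate 2. The other piRNA lists gave 0 genes past the test, with medians of −0.65 for both the nuclear and the biogenesis genes. The smallest unadjusted p among them belonged to Hen1, the methyltransferase gene of piRNA ends, at −0.73 ± 0.32 and with an adjusted p of 0.354 by edgeR. Eggshell markers had a median of 1.65, with a positive value in 17 of 17 and none past the test.

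The comparison of S106 switch with S106 control libraries gives the same feeding without the transgene. Again 0 of 10 members passed edgeR's test, where 0 percent of all genes did. DESeq2 called 0 members and 1 gene, or 0.0102 percent, and limma-voom called 0 members and 0 percent of genes. At an unadjusted p of 0.05 edgeR called 0 members against 0.693 percent of genes, and groups did not overlap for 0 members against 0.275 percent of genes. Log2 fold changes ran from −0.35 ± 0.25 for grk to 0.73 ± 1.36 for nos, with a median of 0.50 against 0.01 over all genes and an adjusted p of 1.00 for each member. Within rounds the median difference on the log2 CPM scale was 0.03 in round 1, 4.06 in round 2, −2.12 in round 3 and 3.26 in round 4. The control library of round 2 and the switch library of round 3 held under 10 counts of vas. Without S106 switch replicate 4 the median over the members was −0.12. Cell cycle genes had a positive value in 21 of 21, with a median of 0.58 and none past the test.

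Whether the switch effect differed between the genotypes was tested as an interaction. No member passed by edgeR, DESeq2 or limma-voom, each of which called 0 percent of all genes, and 0 members by edgeR had an unadjusted p under 0.05 against 1.88 percent of genes. Estimates ran from −1.40 ± 2.04 for vas to 0.27 ± 0.36 for grk, with a median of −1.04 against 0.04 over all genes and adjusted p-values from 0.950 to 0.966. With the round as a block the median over the members was 0.24.

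The genotypes were compared without RU486 as S106>UASfoxo control minus S106 control. Here edgeR called 4 genes, or 0.0407 percent, and 0 of them were members. DESeq2 called 18 genes, or 0.184 percent, and limma-voom 2 genes, or 0.0204 percent, with 0 members among either. At an unadjusted p of 0.05, 0 members stood against 11 percent of genes, and groups did not overlap for 0 members against 3.69 percent of genes. Log2 fold changes ran from −0.32 ± 1.48 for bcd to 0.43 ± 1.31 for AGO3, with adjusted p-values from 0.967 to 1.00, a median of 0.15 and n = 4 and 5 libraries. Deviations from group means correlated at 0.406 to 0.737 between libraries of 1 round in these control groups. The fit above did not pair them. Between libraries of 1 round the median difference on the log2 CPM scale was −0.40 in round 1, −0.48 in round 2, 0.65 in round 4 and 0.18 in round 5. Both libraries of round 2 held under 10 counts of vas. With the round as a block the median over the members was −0.26, and 0 members passed. The median was also negative without S106 control replicate 2 or 3 or without S106>UASfoxo control replicate 1 or 4, the last at −0.48. Eggshell markers had a median of −1.25 in this comparison, with none past the test.

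**Figure D5:**
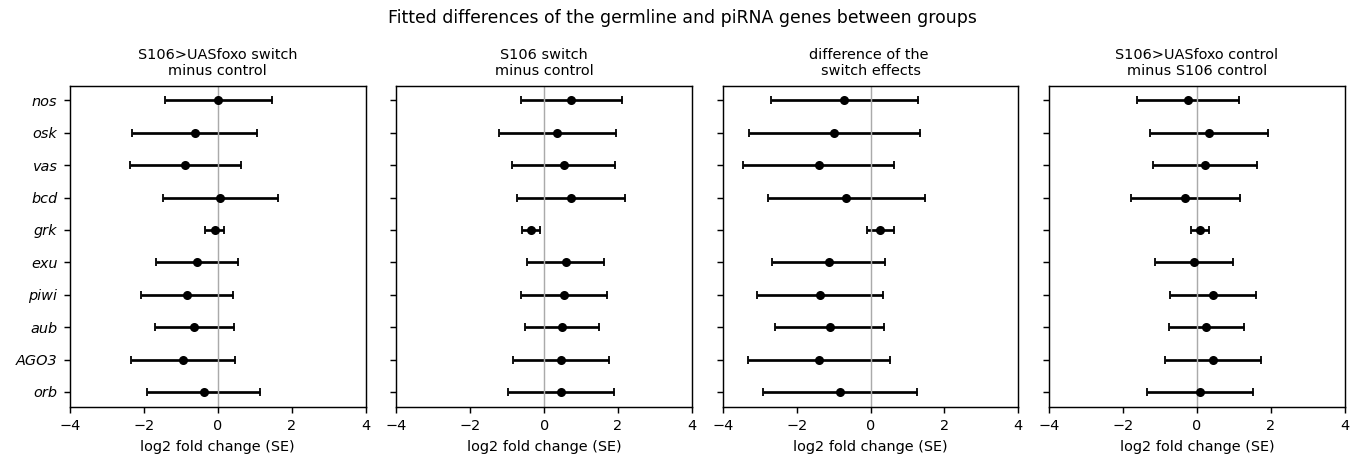
Log2 fold changes fitted by edgeR (horizontal axes, points with SE bars) of the 10 genes in the 4 comparisons. Bars of every gene except grk are wider than 1 on either side, and no gene passed the test.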

How the data were processed

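Counts per gene were deposited by the authors as whole reads in 1 fat body table. Tools named in the submitters' processing notes are HISAT2, featureCounts, SAMtools, FastQC and DESeq2. Their versions and the genome build, strand setting and use of barcodes were not given in the sources used here, and without barcodes PCR copies count as reads. The gut table was not used. Groups came from titles and induction labels, since the treatment label lists RU486 throughout.

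Identifiers were matched to symbols and exon lengths in the BDGP6 Ensembl annotation, by FlyBase identifier for all 10 members. edgeR 4.0.16 (R 4.3.3) fitted 4 groups together (filterByExpr, TMM, robust quasi-likelihood, Benjamini-Hochberg at 0.05) over 9819 genes with 99.92 percent of counts. All 10 members passed the filter. The common biological coefficient of variation was 0.510. Log2 CPM used a prior count of 2. The fit was tested on simulated data. Relations were tested with 100000 two-sided permutations.

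Members and lists were chosen with earlier results of these data known. Named genes are all members, list genes of largest mean or smallest p, and the genes of highest and lowest rho to the mean of the 10 members. Other list genes were named after their values were seen, as examples of wide or narrow range.

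Deviations from group means correlated at −0.420 to 0.770 (S106), −0.063 to 0.584 (S106>UASfoxo) and −0.518 to 0.737 (controls) between libraries of 1 title number, which were not taken to pair. Library rounds were inferred from library numbers in the labels, with a new round at each gut library of S106>UASfoxo control. They gave −0.420 to 0.770, −0.169 to 0.584 and 0.406 to 0.737. The main fit used no pairs and no block. Differences within rounds and fits with the round as a block are given beside it.

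Alternatives were RLE factors, DESeq2 1.42.0, limma-voom (limma 3.58.1), other filters, the compared groups alone, replicate blocks, a threshold of 0.01, another prior count, library totals alone and leaving out each library. Chosen after seeing the data were relations and spreads without libraries low in vas and medians without grk.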

Additional observations from a re-analysis of the deposited data

Results flagged for a closer look

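In 4 of the 40 sets of 1 gene and 1 group, a library lay farther from its neighbours, relative to the range of log2 CPM in the group, than Dixon's 95% critical value of 0.829 for 4 libraries or 0.71 for 5. Chance gives about 5 percent of groups if the sets are independent. Here they are not, as the genes share their libraries and all but grk rose and fell together. A log2 value at 0 counts, as for bcd below, is set by the prior count. The nos and bcd genes stood low in S106>UASfoxo control replicate 2, where nos was at 0.192 CPM with a ratio of 0.832 and bcd had 0 counts with a ratio of 0.909. In S106>UASfoxo switch replicate 2, nos was at 7.46 CPM with a ratio of 0.834 and vas at 4.76 CPM with a ratio of 0.914.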

How the results depend on the processing

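No germline or piRNA gene passed under any alternative, and the lowest adjusted p was 0.665 with a library left out and 0.380 otherwise. The median pairwise rho (0.953) stayed between 0.944 and 0.968, the span of the 10-gene mean (6.60) between 6.28 and 6.60, and 11 of 12 relations to vas passed, with each library left out. By library totals alone the median rho was 0.961. Without the 3 libraries with under 10 reads of vas, the median rho was 0.925 and the span 4.24.

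Genes called by DESeq2 numbered 61 for the S106>UASfoxo switch effect, 1 for the S106 switch effect and 18 between control groups. Between control groups, where 4 were called, limma-voom called 2, the compared groups alone 0, the title replicate block 1, the round block 2, a threshold of 0.01 called 0, and leaving out a library 0 to 2.

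The median over the 10 genes changed sign for the S106>UASfoxo switch effect by limma-voom (0.49) and the round replicate block (1.62), for the difference of the switch effects by the round block (0.24) and between control groups by the round block (−0.26). With a library left out it ran from −0.96 to −0.01, −0.12 to 1.10, −1.61 to −0.38 and −0.48 to 0.76 in the order of the text.

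Single genes changed sign as follows. For the S106>UASfoxo switch effect, nos was −0.041 by RLE, −0.044 by DESeq2 and −0.042 by the compared groups alone. There, limma-voom gave osk 1.66, vas 0.77, piwi 0.030, aub 0.10, AGO3 0.21 and orb 1.54, the title block osk 0.55, aub 0.053 and orb 0.71, and the round block osk 2.74, vas 1.62, exu 0.98, piwi 1.25, aub 1.23, AGO3 1.61 and orb 2.73. For the difference, limma-voom gave osk 1.48 and orb 0.88, and the round block nos 0.69, osk 1.10, vas 0.30, bcd 0.65, piwi 0.11, aub 0.15, AGO3 0.018 and orb 1.20. Between control groups, limma-voom gave nos 0.21, osk −0.062, bcd 0.55, exu 0.60 and orb −0.21, the compared groups alone exu 0.019, the title block nos 1.27, bcd 1.74, grk −0.024 and exu 0.84, and the round block osk −0.24, vas −0.29, piwi −0.14, aub −0.12 and orb −0.47. With each library left out in turn, 48 of 680 single values changed sign. For the S106>UASfoxo switch effect these genes ranged from −0.39 to 0.45 (nos), from −1.03 to 0.094 (osk), from −0.42 to 0.42 (bcd), from −0.22 to 0.029 (grk), from −1.004 to 0.018 (aub) and from −0.80 to 0.33 (orb). For the S106 switch effect they ranged from −0.34 to 0.94 (osk), from −0.14 to 1.19 (vas), from −0.083 to 1.95 (bcd), from −0.095 to 1.15 (piwi), from −0.15 to 1.06 (aub), from −0.039 to 1.12 (AGO3) and from −0.30 to 1.03 (orb). For the difference, bcd ranged from −1.88 to 0.16. Between control groups they ranged from −0.67 to 0.62 (nos), from −0.40 to 0.90 (osk), from −0.51 to 0.88 (vas), from −0.64 to 0.90 (bcd), from −0.037 to 0.22 (grk), from −0.50 to 0.53 (exu), from −0.29 to 1.05 (piwi), from −0.40 to 0.83 (aub), from −0.46 to 1.10 (AGO3) and from −0.64 to 0.65 (orb). The causes were not tested. The interaction uses all 4 groups, so no fit on compared groups alone was run for it. Under 10 reads of vas in 3 libraries limit what ratios show there.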
